A study of Mus musculus with 8 samples.

Results

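Superoxide dismutases and targets of the transcription factor NRF2 were examined in dermal fibroblasts from the skin of newborn C57BL/6 mice, cultured and transfected with control oligonucleotides or with miR-127-3p mimic, a synthetic copy of that microRNA. The set holds 10 genes chosen by symbol, of 17093 genes and other features tested on the array: the dismutases Sod1, Sod2 and Sod3, and the 7 NRF2 targets Nqo1, Gclc, Gclm, Txnrd1, Srxn1, Slc7a11 and Prdx1. The 4 control samples carry the numbers 1, 3, 6 and 8 and the 4 mimic samples the numbers 2, 4, 5 and 7. For controls 3 and 6 the treatment label names both treatments, so the groups were read from the sample titles. The labels give no time after transfection, no dose, and no statement that samples came from separate mice or cultures, so every p-value measures the spread between these samples, which may be technical.

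Superoxide dismutases turn superoxide into hydrogen peroxide in separate places: the copper and zinc enzyme Sod1 in the cytosol, the manganese enzyme Sod2 in mitochondria, and the secreted copper and zinc enzyme Sod3 in the extracellular matrix. NRF2, encoded by Nfe2l2, is held in check by Keap1, which passes it to the proteasome. Oxidants and electrophiles release it, and it then pairs with small Maf proteins on antioxidant response elements and switches on genes that make glutathione, recycle thioredoxin and detoxify quinones. In dermal fibroblasts this system is known as a defence against ultraviolet light and other oxidants, and Sod3 as a guard of collagen and other matrix.

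The mimic stands in for the mature microRNA, which RefSeq (GRCm38.p6) places at chr12:109592888-109592909 on the plus strand. Its sequence is shown because it is the agent applied, with the seed, bases 2 to 8, in capitals.
mmu-miR-127-3p: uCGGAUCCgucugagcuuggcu
Matches to this seed in the members' transcripts were not analysed here.

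Stretches of promoter are shown for the members whose 250 bases before the start hold the core letters of an antioxidant response element, TGACNNNGC, on either strand. RefSeq (GRCm38.p6) gave 10 promoters for 8 of the 10 genes. Of these 10 promoters 4 held the core, 1 each of Gclm, Prdx1, Txnrd1 (the second of its 3 listed promoters by position) and Sod1. Of all 32851 promoters cut to the same length, 10.2% held it. Each stretch reads 5′ to 3′ on the gene's strand and capitals mark the core, which lies on the opposite strand in all 4 and so reads GCNNNGTCA.
Gclm, chr3:122245393-122245461, plus strand: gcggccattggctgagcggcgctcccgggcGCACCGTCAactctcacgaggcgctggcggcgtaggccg
Prdx1, chr4:116685436-116685504, plus strand: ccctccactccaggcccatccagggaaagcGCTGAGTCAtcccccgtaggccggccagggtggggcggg
Txnrd1, chr10:82859084-82859152, plus strand: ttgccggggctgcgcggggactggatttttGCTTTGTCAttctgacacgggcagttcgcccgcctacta
Sod1, chr16:90220676-90220744, plus strand: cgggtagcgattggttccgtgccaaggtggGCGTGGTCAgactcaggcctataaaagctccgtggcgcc
The core in Prdx1 overlaps the letters TGANTCA of an AP-1 element. A match of letters is a description and not a measured binding site.

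The 8 arrays were the positions of 1 slide, scanned once: row 1 held samples 1 to 4 and row 2 samples 5 to 8. Between 20767 and 23474 of 55681 probes per array were well above background. The 10 genes had 11 probes, 2 of them for Prdx1, and all 11 were well above background and unsaturated on all 8 arrays, so all 10 genes were tested and none passed the filter on dim signals through 1 group alone. Levels below are normalised signals: log2 signal minus the array's 75th percentile. They compare the same probe between arrays and not different genes with each other. A log2 fold change is the mimic mean minus the control mean, and SE is its standard error. All 10 fibroblast markers listed, among them Col1a1, Pdgfrb and Thy1, were above background in both groups, with a summed log2 level of 10.72 to 10.94 in controls and 10.82 to 10.95 with the mimic. Single markers did change: the log2 fold change was 1.18 for Dcn, -1.07 for Col3a1 and -0.97 for Pdgfra (limma, adjusted p = 0.0324, 0.0232 and 0.00865). The other 7 were not called.

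Sod3 rose strongly with the mimic, Nqo1 rose slightly and Sod1 fell slightly, while 7 of the 10 genes did not pass the test (limma, adjusted p under 0.05 over all 17093 features). Of all features, 34.2% passed the same test, 15.9% higher and 18.3% lower, so a count of 3 called in 10 lies near the background. Signals did not overlap between the groups in 3 of the 10 genes, against 34.2% of all features. The median log2 fold change was 0.10 over the 10 genes and 0.020 over all features. The unadjusted p was under 0.05 for 5 of the 10.

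**Figure D1:**
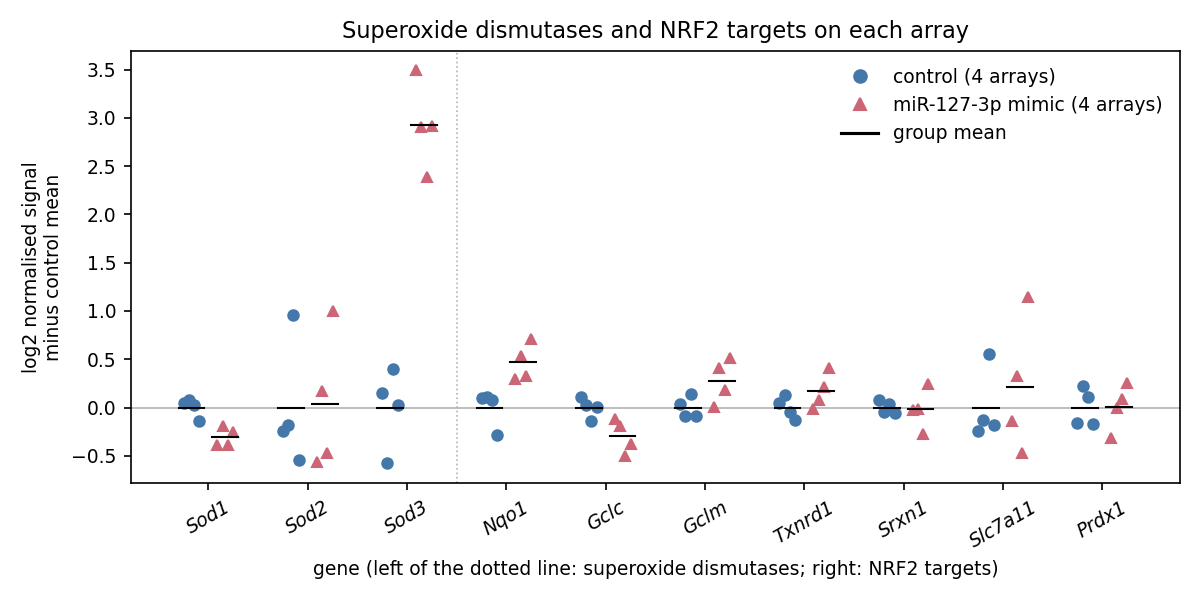
Log2 normalised signal of each gene minus its control mean (vertical axis) for the 3 superoxide dismutases and the 7 NRF2 targets (horizontal axis). Circles are the 4 control arrays, triangles the 4 mimic arrays and black lines the group means. The 4 mimic arrays lie 2.39 to 3.49 above the control mean for Sod3, and within about 1.15 of it for every other gene.

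Sod3, the extracellular dismutase, had signals of 1.08, 0.35, 1.32 and 0.95 in controls 1, 3, 6 and 8. With the mimic they were 4.42, 3.83, 3.31 and 3.84 in samples 2, 4, 5 and 7. All mimic arrays stood above all controls, and the gap between the highest control and the lowest mimic array was wider than the range within either group. The group means were 0.92 ± 0.42 (SD, n = 4) and 3.85 ± 0.45 (SD, n = 4), apart by 2.92 on the log2 scale (SE 0.27, adjusted p = 0.000109). This is a 7.59-fold rise with a 95% interval of 4.99-fold to 11.5-fold. Only 7 of the 17093 features, Sod3 included, rose by as much. Within slide row 1 the log2 fold change was 3.41 (adjusted p = 0.0117, 2 arrays a group) and within row 2 it was 2.44 (adjusted p = 0.0179). The call was kept under all 20 alternative settings, with log2 fold changes of 2.44 to 3.41.

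Macrophage and leukocyte markers moved in the same direction on the same arrays. Of 12 listed, 11 were tested, 9 rose and 0 fell, with a median log2 fold change of 1.21. Their summed log2 level was 5.20 to 5.53 in controls and 6.05 to 6.31 with the mimic, without overlap. The sum is of linear signals and rests mostly on Itgam, the brightest of these probes. Itgam itself ranged from 4.62 to 5.10 in controls and from 5.09 to 5.71 with the mimic, with overlap. The lysozyme gene Lyz2 rose by 1.79 on the log2 scale and the complement gene C1qa by 1.37. Ptprc, the gene of the pan-leukocyte antigen, was not well above background on any array. These are bulk cultures, in which more cells of a type and more RNA per cell cannot be told apart, and the part of these markers in the rise of Sod3 was not tested.

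Sod1, the cytosolic dismutase, had signals of 7.01, 7.04, 6.99 and 6.82 in controls 1, 3, 6 and 8. With the mimic they were 6.58, 6.78, 6.57 and 6.72 in samples 2, 4, 5 and 7. The mimic arrays all lay below the controls, but the gap between the lowest control and the highest mimic array was narrow. The means were 6.97 ± 0.10 (SD, n = 4) and 6.66 ± 0.10 (SD, n = 4), so Sod1 fell by 0.30 on the log2 scale (SE 0.086, adjusted p = 0.0259), a 1.23-fold difference. This call was lost without control 1, 3 or 6 or without mimic 2 or 5 (adjusted p = 0.0634, 0.0560, 0.0619, 0.0600 and 0.0583), when slide column was added as a block (0.0987), without a filter on background (0.123), and without control 6 and mimic 7 together (0.103). Within slide rows 1 and 2 the log2 fold changes were -0.35 and -0.26 (adjusted p = 0.193 and 0.277).

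Sod2, the mitochondrial dismutase, followed single arrays rather than the groups. Its signals were 5.48, 5.54, 6.68 and 5.18 in controls 1, 3, 6 and 8, and 5.15, 5.90, 5.25 and 6.73 in mimic samples 2, 4, 5 and 7. Control 6 and mimic 7 were the high arrays, the rest lay between 5.15 and 5.90, and the groups overlapped throughout. The log2 fold change was 0.035 (SE 0.42, adjusted p = 0.959). In this unpaired fit the 95% interval of -0.91 to 0.98 leaves room for a change of nearly 2-fold either way. The sample titles give no pairing, so a paired interval was not computed. The SD was 0.66 in controls and 0.73 with the mimic, where the median over all features was 0.17 and 0.16.

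The change of Sod3 was then set against that of each of the other 9 genes, as the difference between their log2 signals on the same array. Sod3 minus Sod1 shifted by 3.23 between the groups (95% interval 2.44 to 4.02) and Sod3 minus Sod2 by 2.89 (1.61 to 4.17). For the NRF2 targets the shift lay between 2.46 against Nqo1 (1.61 to 3.31) and 3.22 against Gclc (2.54 to 3.91). The groups did not overlap in any of the 9 differences. Each gave an exact permutation p of 0.0286 (two-sided, 70 assignments of 4 and 4 arrays; adjusted p = 0.0286 over the 9 comparisons), which is the smallest this design can give. The 9 comparisons share the Sod3 signals and so are not independent of each other. Sod3 alone already separated the groups and changed far more than the other genes, so this p largely restates its own separation. Sod3 was also set apart with earlier results of these data known, so the p is no independent support. Against the array median of the 7 NRF2 targets, Sod3 shifted by 2.79.

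**Figure D2:**
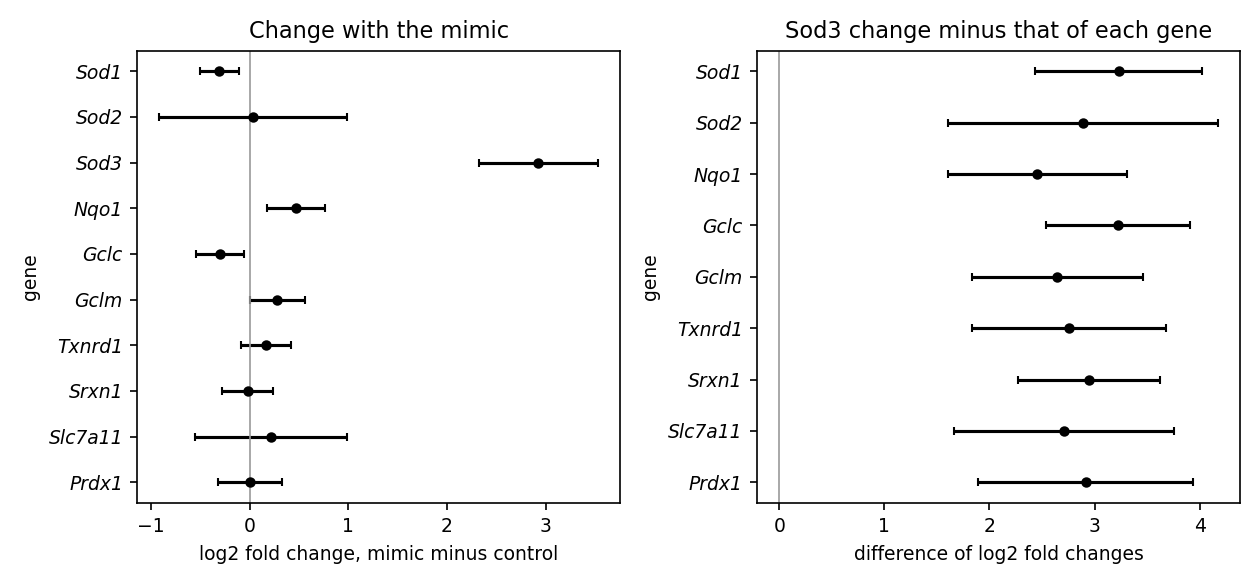
Left, log2 fold change with the mimic (mimic minus control) for each gene; right, the log2 fold change of Sod3 minus that of each other gene. Points are estimates from 4 control and 4 mimic arrays and bars are 95% intervals. Sod3 stands at 2.92 while the other genes lie between -0.30 and 0.47, and every interval on the right lies above 0.

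Nqo1, the quinone reductase widely used as a readout of NRF2, was the sole NRF2 target of the 7 that passed the test. Its signals were 2.84, 2.85, 2.83 and 2.47 in controls 1, 3, 6 and 8. With the mimic they were 3.04, 3.28, 3.08 and 3.46 in samples 2, 4, 5 and 7. The 3 higher controls lay close together, control 8 lay below them, and no mimic array overlapped the controls. Nqo1 rose by 0.47 on the log2 scale (SE 0.13, adjusted p = 0.0233), or 1.38-fold with a 95% interval of 1.13-fold to 1.70-fold. The call was lost without control 8 or without mimic 4 or 7 (adjusted p = 0.0513, 0.0638 and 0.0595), when slide column was added as a block (0.0612), without a filter on background (0.0860), and without control 6 and mimic 7 together (0.0891). Within slide rows 1 and 2 the log2 fold changes were 0.32 and 0.62 (adjusted p = 0.241 and 0.141).

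The subunits of glutamate-cysteine ligase, which makes the first bond of glutathione, had estimates of opposite sign. Gclc, the catalytic subunit, had signals of 3.25, 3.16, 3.00 and 3.14 in controls 1, 3, 6 and 8 and of 3.02, 2.94, 2.64 and 2.76 in mimic samples 2, 4, 5 and 7. Mimic 2 lay just above control 6 and the other mimic arrays lay below all controls. Its log2 fold change was -0.30 (SE 0.11, adjusted p = 0.0568), and it passed the test under 5 of 20 settings, among them the removal of mimic 2 (adjusted p = 0.0379) and a block for slide row (adjusted p = 0.0280). Gclm, the modifier subunit, had signals of 0.44, 0.32, 0.54 and 0.32 in the controls and of 0.42, 0.82, 0.59 and 0.91 with the mimic, in the same order. Mimic 2 lay among the controls and the other mimic arrays above them. Its log2 fold change was 0.28 (SE 0.12, adjusted p = 0.111), and it passed without mimic 2 (0.37, adjusted p = 0.0387).

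Slc7a11, the subunit of the cystine importer that feeds glutathione synthesis, varied between arrays. Its signals were -0.65, -0.53, 0.15 and -0.58 in controls 1, 3, 6 and 8 and -0.54, -0.075, -0.88 and 0.75 in mimic samples 2, 4, 5 and 7. The highest array of each group was again control 6 and mimic 7, and mimic 5 was the lowest of all 8. The log2 fold change was 0.22 (SE 0.34, adjusted p = 0.657), with a 95% interval of -0.56 to 0.99, and -0.095 without mimic 7. Sod2, Slc7a11 and Gclm were the 3 members highest in control 6 among controls and in mimic 7 among mimic arrays, a pattern that 7.88% of all features showed. Without both arrays Sod3 rose by 3.06 (adjusted p = 0.00192) and was the 1 member that passed.

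**Figure D3:**
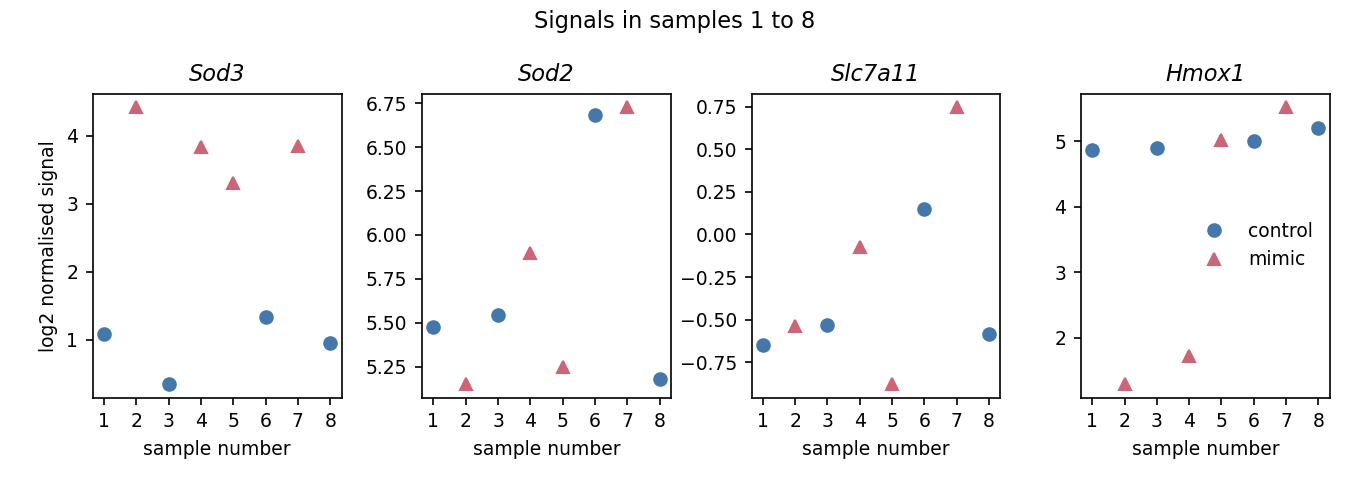
Log2 normalised signal (vertical axes, each with its own range) of Sod3, Sod2, Slc7a11 and Hmox1 in samples 1 to 8 (horizontal axes). Circles are controls and triangles mimic samples. Sod3 separates the groups, Sod2 and Slc7a11 are highest in control 6 and mimic 7 of their groups, and Hmox1 is low in mimic samples 2 and 4.

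Genes of thioredoxin and peroxide metabolism among the members showed no change that passed. Txnrd1, the cytosolic thioredoxin reductase, ranged from 5.47 to 5.74 in controls and from 5.58 to 6.01 with the mimic, and their means differed by 0.17 on the log2 scale (SE 0.11, adjusted p = 0.272). Srxn1, sulfiredoxin, which repairs overoxidised peroxiredoxins, ranged from 5.20 to 5.33 and from 4.98 to 5.50, with a log2 fold change of -0.020 (95% interval -0.28 to 0.24, adjusted p = 0.909). Its mimic arrays spread over more than 3 times the SD of the controls (0.22 against 0.066). Prdx1, a cytosolic peroxidase that removes hydrogen peroxide, ranged from 6.05 to 6.44 and from 5.90 to 6.47, with a log2 fold change of 0.0058 (95% interval -0.32 to 0.33, adjusted p = 0.980). The second probe of Prdx1 gave -0.15 (SE 0.16, adjusted p = 0.489 over all probes), so neither probe passed. Of the 4 genes whose promoter core is printed above, Sod1 alone was called: the log2 fold changes of Gclm, Prdx1, Txnrd1 and Sod1 were 0.28, 0.0058, 0.17 and -0.30.

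Hmox1, haem oxygenase, is another classical NRF2 target and separated the mimic arrays from each other. It stood at 4.86 to 5.20 in controls, at 1.29 and 1.72 in mimic samples 2 and 4 and at 5.01 and 5.51 in mimic samples 5 and 7. Its log2 fold change was -1.60 (SE 0.92, adjusted p = 0.212), and it was -3.37 within slide row 1 (adjusted p = 0.00732) and 0.17 within row 2 (adjusted p = 0.633). The second probe of Hmox1 gave a smaller -0.87 (SE 0.62, adjusted p = 0.310 over all probes). It stood at 1.08 to 1.61 in controls, at -0.94 and -0.43 in mimic samples 2 and 4 and at 1.54 and 2.02 in mimic samples 5 and 7. Sod3 was high on all 4 of these mimic arrays.

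Other genes of redox defence were read from 6 lists ordered by role, holding 105 genes, of which 93 were tested. Of the 93, 23 rose and 14 fell, with a median log2 fold change of 0.092. Among all tested features with a symbol, 18.2% rose and 20.1% fell. The count of 37 dropped to 21 with slide column as a block and to 20 without control 6 and mimic 7.

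**Figure D4:**
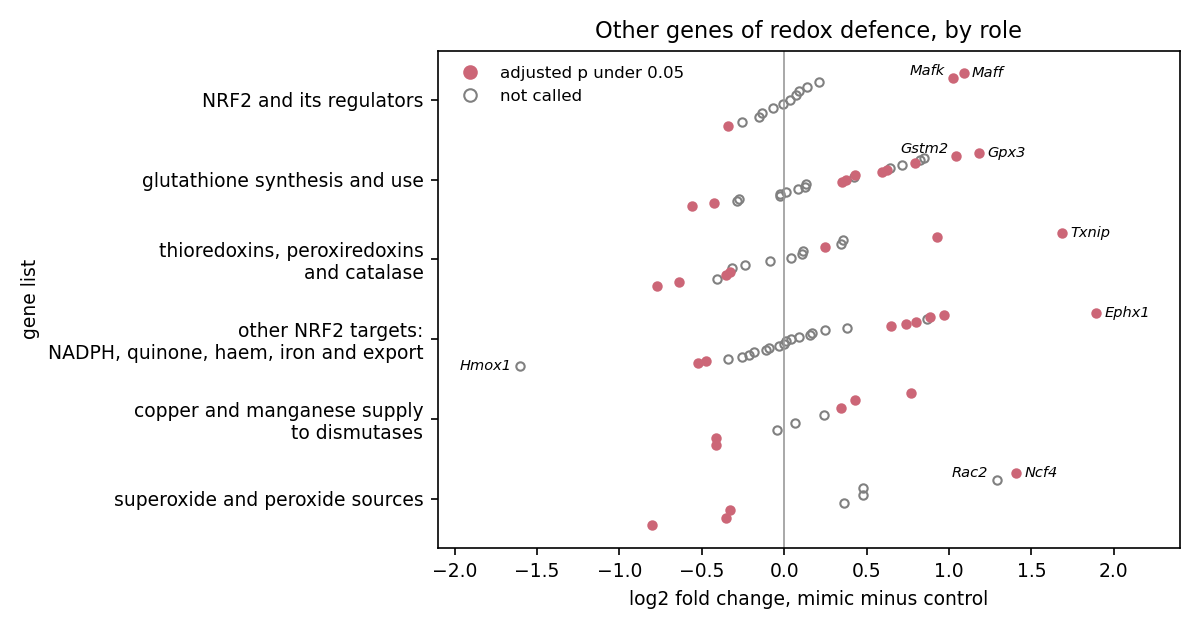
Log2 fold change with the mimic (horizontal axis, mimic minus control) of each tested gene in 6 lists of redox genes (vertical axis). Filled points passed the test at adjusted p under 0.05 and open points did not; genes beyond 1 on either side are named. Ephx1 at 1.89 and Txnip at 1.69 are the highest called points, and most NRF2 regulators lie near 0.

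NRF2 itself and its main inhibitor did not pass the test, while the small Maf partners Maff and Mafk did and Mafg did not. Of 13 tested genes in the list of NRF2 and its regulators, 2 rose and 1 fell (median log2 fold change 0.034). For Nfe2l2 the log2 fold change was 0.14 (SE 0.11, adjusted p = 0.387) and for Keap1 it was 0.034 (SE 0.088, adjusted p = 0.796). Maff rose by 1.09 (SE 0.11, adjusted p = 0.000205), from 1.64 to 1.91 in controls to 2.57 to 2.97 with the mimic, and Mafk rose by 1.02 (SE 0.15, adjusted p = 0.00135). Small Maf proteins pair with NRF2 and also with its competitor Bach1, whose log2 fold change was -0.067 (adjusted p = 0.685). Bach2, a relative of Bach1, had a log2 fold change of -0.34 (adjusted p = 0.0287). It was above background on 2 of 4 mimic arrays, and 13 of 19 settings ended its call, including leaving out any single array other than control 6 (adjusted p = 0.0503 to 0.0730). Nfe2l1, Mafg, Cul3, Rbx1, Sqstm1, Btrc and Gsk3b did not pass, with log2 fold changes between -0.26 for Mafg and 0.21 for Btrc. For Mafg the groups did not overlap (adjusted p = 0.0788), and it passed as lower under 2 of 20 settings.

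Glutathione enzymes held more rises than falls: of 23 tested, 8 rose and 2 fell (median log2 fold change 0.38). Gpx3, the secreted glutathione peroxidase, rose by 1.18 (SE 0.20, adjusted p = 0.00284) and Gpx8, the peroxidase of the endoplasmic reticulum, by 0.80 (SE 0.10, adjusted p = 0.000695). The glutathione transferase Gstm2 rose by 1.04 (SE 0.16, adjusted p = 0.00143), and it belongs to a family of close paralogs whose probes may share signal. Gss, which completes glutathione, rose by 0.43 (SE 0.093, adjusted p = 0.00788).

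Thioredoxins, peroxiredoxins and related genes were split, with 3 of 16 higher and 4 lower (median log2 fold change -0.023). Prdx5 rose by 0.93 (SE 0.12, adjusted p = 0.000646), while Prdx4, the peroxiredoxin of the endoplasmic reticulum, fell by 0.64 (SE 0.084, adjusted p = 0.000730). The mitochondrial reductase Txnrd2 fell by 0.77 (SE 0.10, adjusted p = 0.000674). Txnip, which binds and inhibits thioredoxin, rose by 1.69 (SE 0.36, adjusted p = 0.00777), with controls from 0.011 to 1.69 and mimic arrays from 2.34 to 3.07.

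Other NRF2 targets, which cover NADPH supply, quinones, haem, iron and export, rose in 6 and fell in 2 of 25 cases (median log2 fold change 0.040). Ephx1, the microsomal epoxide hydrolase, rose by 1.89 (SE 0.12, adjusted p = 2.27e-05), with controls from 4.60 to 4.92 and mimic arrays from 6.37 to 6.83. The aldo-keto reductase gene Akr1b10 rose by 0.80 (SE 0.10, adjusted p = 0.000578) and the ubiquitin ligase gene Trim16 by 0.97 (SE 0.13, adjusted p = 0.000970). Blvra, biliverdin reductase, fell by 0.52 (SE 0.090, adjusted p = 0.00285). The calls of Ephx1, Akr1b10, Maff and Gpx3 were kept under all 20 settings.

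Genes listed under copper and manganese supply to the dismutases moved both ways, with 3 of 8 higher and 2 lower (median log2 fold change 0.15). The listing is by assumed role, and metal supply was not measured. Ccs, the chaperone that loads copper into Sod1, rose by 0.34 (SE 0.086, adjusted p = 0.0157). The copper transporter genes differed in direction: Slc31a2 rose by 0.77 (adjusted p = 0.00376) and the importer Slc31a1 fell by 0.41 (adjusted p = 0.0244). The call of Slc31a1 was lost without mimic 5 or 7 (adjusted p = 0.0531 and 0.0669). The mitochondrial carrier gene Slc25a39 fell by 0.42 (adjusted p = 0.00953). A block for slide column ended the calls of Ccs, Slc31a1 and Slc25a39 (adjusted p = 0.0726, 0.0673 and 0.0568).

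Sources of superoxide and peroxide were thinly measured, with 8 of 14 listed genes tested, of which 1 rose and 3 fell (median log2 fold change 0.42). Cybb, the catalytic subunit of the phagocyte oxidase, and Nox1 were not well above background on any array. Ncf4, a subunit of the phagocyte oxidase, rose by 1.41 on the log2 scale (SE 0.42, adjusted p = 0.0315), while Rac2, a regulator of that oxidase, differed by 1.29 without passing (adjusted p = 0.0696). Rac2 was above background on 1 of 4 controls and 3 of 4 mimic arrays. It gave 0.42 with normexp background correction (adjusted p = 0.0659), and it passed within slide row 1 (1.87, adjusted p = 0.0185), without mimic 5 (1.72, 0.0102) and without control 6 (1.62, 0.0324). The macrophage and leukocyte markers above moved with these genes, and their part was not tested. Poldip2 fell by 0.36, Aifm1 by 0.33 and Loxl2 by 0.80 (adjusted p = 0.0106, 0.0225 and 0.0302). The call of Ncf4 was lost without any 1 of 6 arrays (controls 1, 3 and 8, mimic 2, 4 and 7; adjusted p up to 0.0854) and with normexp background correction (log2 fold change 0.69, adjusted p = 0.0668), that of Loxl2 without control 1, 3 or 6 or mimic 2, 4 or 7 (up to 0.0704), and that of Aifm1 without control 1 or mimic 4 or 7 (up to 0.0664).

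The genes with a pattern most like Sod3 were ranked by the root mean square difference over the 8 arrays, after each gene's control mean was subtracted. The nearest were Lamc3, a laminin chain (difference 0.31 on the log2 scale), Serpine2, a secreted protease inhibitor (0.38), C1qtnf3, a secreted protein (0.44), 1700088E04Rik (0.47) and Tfpi2, an extracellular protease inhibitor (0.54). Serpine2, C1qtnf3 and Tfpi2 rose by 2.58, 2.53 and 2.76 on the log2 scale (adjusted p = 7.10e-05, 8.60e-05 and 7.13e-05). Lamc3 and 1700088E04Rik were well above background on 0 of 4 controls, so their likeness rests partly on signals with no measured level. Their mimic means were set against the dimmest probe well above background on each control array, or the gene's own signal where that was brighter. On this measure Lamc3 was 5.26-fold higher and 1700088E04Rik 2.34-fold higher. The dimmest such probe marks the lowest level called on an array, so these folds are not lower bounds. The main fit, which used the undetected control signals, gave adjusted p = 3.27e-05 for Lamc3 and 2.13e-05 for 1700088E04Rik. With normexp background correction their log2 fold changes were 1.20 and 0.63, against 2.60 and 2.49 without it. The nearest to Slc7a11 were Saa1, an acute phase protein (0.17), Plscr1 (0.17), Vcam1, an adhesion receptor (0.21), Nfkb1, a subunit of NF-kB (0.21), and Rsl1 (0.22). In control 6 these 5 genes stood 0.47 to 0.86 above their control means and in mimic 7 they stood 0.88 to 1.19 above them. None of the 5 passed the test between the groups.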

How the data were processed

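RNA was labelled with Cy3 and hybridised 1 sample per Agilent array. Per the file headers, the deposited intensity values were written by Agilent Feature Extraction (version 11.5.1.1) as background-subtracted signals not normalised between arrays; probe annotation was on mm9. The deposited log2 value table equals log2 processed intensity minus 1 constant per array near the 75th percentile (SD of the offset at most 2.78e-07); its direction is that of the signal and genes were not centred. The series' design text names GeneSpring 14.9.1; its settings are not given in the sources used here.

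Here, 3671 control spots of 62976 and outlier spots were left out, spots of a probe were averaged as log2, and each array's 75th percentile was subtracted. Accessions matched RefSeq symbols (GRCm38.p6) for 28331 of 55681 probes. Probes well above background on at least 4 arrays were kept, 1 per gene by highest mean signal. The mimic was tested against the control in limma (version 3.58.1, R 4.3.3; two-sided, Benjamini-Hochberg over 17093 features, threshold 0.05), which gives every adjusted p unless another test is named; the fit was tested on simulated data. Precision is limited by the number of arrays, 4 a group, and no fit or test took account of any pairing of samples. Single differences used exact permutation. Lists are described by counts and medians without a set test.

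Members, lists, the rule for named genes and alternatives were chosen with earlier results of these data known. The rule names all members, of each redox list up to 4 called genes with the smallest p, all tested NRF2 regulators, and the 5 genes most like Sod3 and Slc7a11; Hmox1, Rac2, Cybb, Nox1 and single markers were named after their values were seen. The files hold no mean spot signal, so normexp (offset 50) used the median signal. Alternatives were normexp, quantile normalisation, the deposited table, other background filters, the mean of a gene's probes, slide row or column as a block, each row alone, an intensity trend, and each array left out.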

Additional observations from a re-analysis of the deposited data

Results flagged for a closer look

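In 2 of 22 groups of 4 arrays (11 probes in 2 groups) a single array stood apart from the other 3 by more than the 95% critical value of Dixon's test, which chance passes in about 1 of 20 groups. Nqo1 in control 8 stood at 2.47, where the other controls lay between 2.83 and 2.85. Slc7a11 in control 6 stood at 0.15, where the other controls lay between -0.65 and -0.53.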

How the results depend on the processing

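Of 20 alternatives, 19 were planned; leaving out control 6 and mimic 7 together was added after the data were seen. The features called, 5851, became 3657 without a filter on background, 1759 and 1611 within slide rows 1 and 2, and 3613 without control 6 and mimic 7. The members called, 3, became 1 in these 4 settings and 1 with slide column as a block. The 37 called genes of the redox lists became 18 without a filter, 21 with slide column as a block, 10 and 11 within rows 1 and 2, and 20 without control 6 and mimic 7. Sod3 minus Sod1 was 3.76 and 2.70 within rows 1 and 2 and 3.01 to 3.38 with 1 array left out. Sod3 minus the median of the NRF2 targets was 3.44 and 2.14 within rows and 2.55 to 2.96 with 1 array left out. Sod3 minus Sod2 moved by less than its spread in all 20. With 7 arrays Sod3 minus Sod1 and Sod3 minus Sod2 each kept an exact permutation p of 0.0286 (two-sided), the smallest possible; with 6 or 4 arrays that test cannot pass 0.05, so those are values without a test. The cause of these shifts was not tested beyond the fewer arrays, or the more features, that each setting holds.

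Of the genes whose log2 fold change turned sign in some setting, none was called with all arrays and the main settings. Prdx1 gave -0.021 with quantile normalisation, -0.074 as the mean of its probes, -0.19 within row 1, -0.040 without control 6 and mimic 7, and -0.077 to 0.11 with 1 array left out. With 1 array left out Sod2 ranged from -0.29 to 0.35, Slc7a11 from -0.095 to 0.45, Srxn1 from -0.11 to 0.066, Keap1 from -0.0038 to 0.092, Nfkb1 from -0.28 to 0.28, Rbx1 from -0.042 to 0.024, Saa1 from -0.011 to 0.55, Sqstm1 from -0.058 to 0.26 and Vcam1 from -0.032 to 0.48. Txnrd1 gave -0.063 within row 1. Within row 1 Bach1 gave 0.0039, Rbx1 0.049, Sqstm1 -0.025 and Nfkb1 -0.037; within row 2 Keap1 gave -0.089, Nfe2l1 -0.042, Vcam1 -0.096 and Hmox1 0.17. As the mean of their probes Gsk3b gave 0.0011 and Rbx1 0.049, and with normexp Keap1 gave -0.0016. Without control 6 and mimic 7 Nfkb1 gave -0.025 and Sqstm1 -0.00083.

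Bach2, Btrc, Ncf4, Rac2, Lamc3 and 1700088E04Rik gave no value under the filter that asks for all 8 arrays. Poldip2, Ccs, Slc25a39, Slc31a1 and Aifm1 each lost their call without a filter, with a block for slide column, and without control 6 and mimic 7; Loxl2 lost its call as the mean of its probes (-0.64, adjusted p = 0.107).

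No paired analysis was run: the sample titles number the arrays 1 to 8 and give no pairing. The summed log2 level of skeletal muscle markers was 5.99, 6.19, 5.94 and 5.26 in controls 1, 3, 6 and 8. It was 5.93, 6.14, 5.90 and 5.13 in mimic samples 4, 5, 7 and 2. For adipocyte markers it was 4.37, 2.90, 3.94 and 3.47, and 4.33, 2.61, 4.34 and 3.38. Keratinocyte sums lay further apart in this order. Whether control and mimic samples share mice or cultures was not tested. The arrays' background, not read depth, limits dim probes; no member was near it.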

Other observations

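Listed markers of further cell types of skin were read from the same arrays. Of the keratinocyte list 6 of 10 were tested and 1 rose, with summed log2 levels of 3.70 to 4.93 in controls and 4.62 to 5.60 with the mimic, and Krt1 and Krt15 were not above background on any array. Of endothelial markers 3 of 8 were tested and 1 rose, and Tek, Tie1 and Cldn5 were not above background on any array. Of smooth muscle and pericyte markers 6 of 8 were tested and 1 fell, of melanocyte and Schwann markers 7 of 9 were tested and 1 rose, and of adipocyte, skeletal muscle and mast cell markers 5, 5 and 1 were tested and none passed the test. Median log2 fold changes were 0.72 for keratinocyte, 0.88 for melanocyte and Schwann, 0.13 for endothelial and 0.019 for smooth muscle and pericyte markers. They were 0.091 for adipocyte and -0.043 for skeletal muscle markers, and the 1 mast cell marker tested gave 0.17. Of the 10 fibroblast markers 1 rose and 2 fell, with a median of 0.041.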
